A study of Mus musculus with 16 samples.

Results

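The 10 genes described here serve MHC class I antigen presentation and its MR1 branch in the mouse ventricle: Nlrc5, Psmb8, Psmb9, Tap1, Tap2, Tapbp, H2-K1, H2-D1, B2m and Mr1. They are the rows that carry these symbols, by GENCODE M21, in a table of read counts for 33399 genes, of which 16400 held enough counts to be tested. All 10 were among the tested genes. The list was selected on measured values, the CKD-against-control fold changes of these same libraries, which were known when it was drawn up, so that contrast is given for these genes as a description. Its calls and intervals are those of the fit over all genes, printed beside the background, and support nothing about these genes. The difference between the sexes and the interaction of sex and CKD did not enter the choice, and these were tested. Relations between mice of the same group were also tested, on values with the group means removed. Mr1 was taken up there because its fold change had the opposite sign, so these tests are not fully separate from the choice.

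MHC class I molecules display peptides from inside the cell to CD8 T cells. Proteins are cut by the proteasome, which in its immune form carries the catalytic subunits Psmb8 and Psmb9, and the Tap1 and Tap2 transporter pumps the peptides into the endoplasmic reticulum, where tapasin (Tapbp) helps load them onto a heavy chain (H2-K1 or H2-D1) paired with the light chain B2m. Nlrc5 is the transactivator of the class I genes. It is induced by interferon gamma and acts at their promoters through the RFX, CREB/ATF and NF-Y factors, without binding DNA on its own. Mr1 is a class I-like molecule that also pairs with B2m, but shows vitamin B metabolites to MAIT cells. In the heart, endothelial and immune cells are known for high class I levels and cardiomyocytes for low ones.

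Ventricles came from wild-type (WT) C57BL/6 mice, 8 with chronic kidney disease (CKD) and 8 controls, with 4 females and 4 males in each arm. From 8 weeks of age, CKD mice were given chow holding 0.25% adenine, alternated with plain chow, over 6 weeks, and control mice ate plain chow for the same 6 weeks. Adenine injures the kidney tubules through crystals of its oxidation product. Feeding was steered towards a median blood urea nitrogen of 40 to 70 mg/dL, and body weight loss was limited, so a change of diet and weight goes with the kidney injury in this model. The kidney values of single mice were not analysed here. Total RNA of the whole ventricle was sequenced as paired reads of 50 bases, so fewer cells of a type and less RNA per cell cannot be told apart.

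Of the 10 genes, 7 lie on chromosome 17 (GRCm38, the assembly that mm10 names). From low to high coordinates these are Tapbp at chr17:33915899-33929292 on the plus strand, H2-K1 at chr17:33996017-34000347 on the minus strand, Psmb9 at chr17:34181987-34187764 on the minus strand, Tap1 at chr17:34187553-34197225, Psmb8 at chr17:34197721-34201454 and Tap2 at chr17:34203527-34216321, these 3 on the plus strand, and H2-D1 at chr17:35262730-35267499 on the plus strand. Psmb9, Tap1, Psmb8 and Tap2 form a run of neighbours, and Psmb9 and Tap1 point away from each other with starts 211 bases apart and ends of their annotated exons that overlap. B2m lies at chr2:122147686-122153083 and Nlrc5 at chr8:94434356-94527272, both on the plus strand, and Mr1 at chr1:155127277-155146814 on the minus strand.

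The promoters of H2-K1, H2-D1, B2m and Mr1 are shown. The first 3 hold a spaced pair of motifs known from class I promoters, and Mr1 holds none of the motifs looked for. Each run is the 150 bases before the RefSeq transcription start (GRCm38.p6), 5′ to 3′ on the strand of the gene. Capitals mark TGACG and ATTGG with 20 bases between them, the cores of the X2 box (bound by CREB/ATF) and the Y box (bound by NF-Y) of class I promoters, and, in B2m, also GAAANNGAAA, an interferon-stimulated response element core. The windows are chr17:34000348-34000497 (minus strand) for H2-K1, chr17:35262944-35263093 (plus) for H2-D1, chr2:122147537-122147686 (plus) for B2m and chr1:155146815-155146964 (minus) for Mr1.
H2-K1: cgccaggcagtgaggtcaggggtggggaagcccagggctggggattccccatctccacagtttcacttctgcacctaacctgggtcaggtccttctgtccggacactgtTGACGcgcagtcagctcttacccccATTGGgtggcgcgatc
H2-D1: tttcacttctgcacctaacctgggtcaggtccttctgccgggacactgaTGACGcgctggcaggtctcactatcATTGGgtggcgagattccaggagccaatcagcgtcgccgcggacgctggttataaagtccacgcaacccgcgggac
B2m: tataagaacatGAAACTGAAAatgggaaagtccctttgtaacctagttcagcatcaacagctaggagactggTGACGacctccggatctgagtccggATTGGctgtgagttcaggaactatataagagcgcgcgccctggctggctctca
Mr1: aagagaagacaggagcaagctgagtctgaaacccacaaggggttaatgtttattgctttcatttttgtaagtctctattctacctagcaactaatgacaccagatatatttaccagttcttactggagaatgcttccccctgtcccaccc

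Windows of 250 bases before the start were found in RefSeq for 8 of the 10 genes, all but Tap2 and Nlrc5. The spaced pair of TGACG and ATTGG, searched on both strands and chosen as a motif after these windows had been seen, began at position -41 in the H2-K1 entry printed here (-55 in the other of its 2 RefSeq entries), -101 in H2-D1 and -78 in B2m, counted back from the start. It occurred in 30 of 32851 windows of that length (0.0913%). The windows of Tap1, Tapbp, Psmb8 and Psmb9 did not hold the pair, and these genes also had lower values in CKD ventricles. GAAANNGAAA was in 2.98% of the windows and, among these genes, in that of B2m at -139. Only exact matches to this pattern were counted, and other forms of the interferon-stimulated response element were not searched for. Its absence from the other windows, those of H2-K1 and H2-D1 included, therefore does not show that they lack such an element. TGACG by itself, in 17.8% of windows, was also present in Tap1 and Psmb9 as 1 site that both windows cover, and CCAAT or its complement ATTGG was in 33.8%. TTCNNNGAA, also looked for, was in 7.02% of windows and, among these genes, in that of Psmb8 at -97. These matches describe the letters of the windows and show no binding. Besides H2-K1, H2-D1 and B2m, 17 tested genes had the spaced pair in a window, and 9 of the 17 had a negative CKD-against-control log2 fold change.

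The libraries held 10203707 to 13626039 counts, and the tested genes took at least 99.8% of each. Values are given as CPM, counts relative to the TMM-scaled total of each library. Where genes are compared with each other, they are given as CPM per kilobase of annotated exon. That length joins the exons of all annotated transcripts, so the ranks and ratios of genes depend on it. Cardiomyocyte markers summed to 40870 to 60100 CPM in CKD and 38140 to 52310 CPM in control ventricles, as a ventricle sample would have. Library male_CKD 4 stood apart. Its fibroblast markers summed to 532.4 CPM, against 1407 CPM or more in each of the other 15 libraries, its endothelial, mural, macrophage and dendritic sums were the lowest too, and its cardiomyocyte sum of 60100 CPM was the highest. Values without this mouse are given below. The sample titles carry a number after the letter C, which is 6 in 10 libraries (5 CKD and 5 control) and another number in 6 (3 CKD and 3 control). The sources used here do not give its meaning.

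Per kilobase of exon, the 10 genes spanned more than 2 orders of magnitude. B2m was the most abundant at a mean level of 174 CPM per kilobase over the 16 libraries, and its lowest library (94.0) lay above the highest of any other member. H2-D1 (53.6) and H2-K1 (50.8) came next and did not differ beyond their spread. Tapbp followed at 10.8, with its highest library (20.2) below the lowest of H2-D1 and H2-K1. From there each gene overlapped its neighbour in the order: Mr1 stood at 5.23, Tap2 at 5.09, Psmb8 at 3.97, Psmb9 at 2.40, Tap1 at 1.72 and Nlrc5 at 0.745 CPM per kilobase. The rank of Mr1 was not the same in both arms. It averaged 6.22 CPM per kilobase in CKD ventricles, above Tap2 at 4.81, and 4.23 in control ventricles, below Tap2 at 5.37 and Psmb8 at 4.54. H2-K1 and H2-D1 also traded places, within their spread. Nlrc5, at 33 to 128 counts per library, was the gene with the most counting error.

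**Figure D1:**
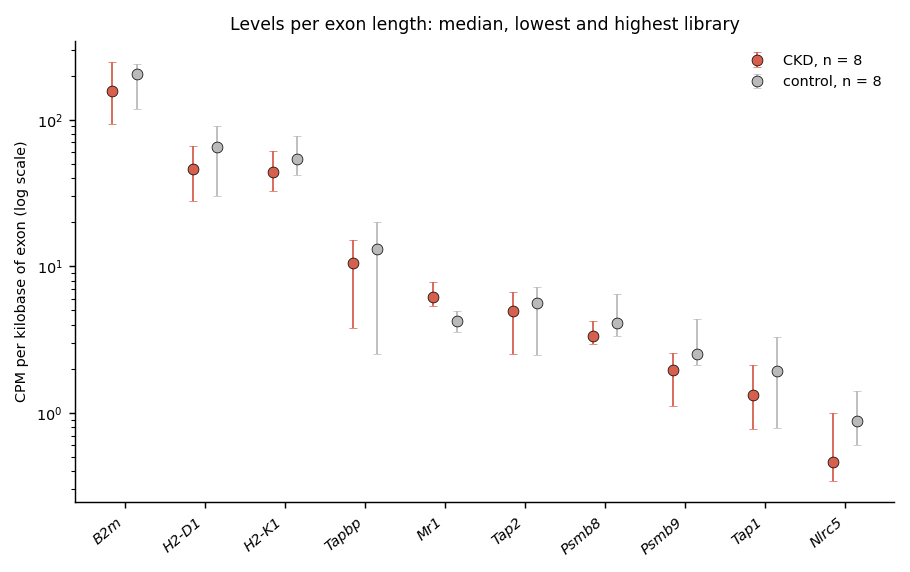
Level of each gene in CPM per kilobase of exon on a log scale, for CKD (left of each pair) and control ventricles (right); points are medians and bars run from the lowest to the highest of 8 libraries. B2m is highest, Nlrc5 lowest, and Mr1 is the gene whose 2 bars do not overlap.

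In CKD ventricles 9 of the 10 genes had lower values than in control ventricles, and Mr1 had higher ones. The median log2 fold change, CKD over control, was -0.39 over the 10 genes and 0.00172 over all tested genes, of which 49.8% were negative. Without male_CKD 4 the median over the 10 was -0.35, and with female_control 2, the library of lowest Tapbp, left out as well it was -0.44. The 9 lower genes ranged from -0.18 (Tap2) to -0.70 (Nlrc5). Overlap between the arms was the rule for these 9, since each had CKD libraries within the control range. Across all genes edgeR's quasi-likelihood F test called 7 genes higher and 7 lower at an adjusted p under 0.05, each 0.0427% of those tested; Mr1 was among the higher ones and no member among the lower ones. At an unadjusted p under 0.05, 7 members were among the 1187 lower genes (7.24% of those tested), all of the 9 but Tap2 and Tapbp. The contrast chose the genes, so these counts are given beside the background and nothing is read from them.

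Nlrc5, the transactivator, had 2.89, 3.94, 3.93 and 8.42 CPM in female CKD mice, against 5.10, 6.31, 8.77 and 8.67 CPM in female controls. In males it had 7.91, 5.30, 2.95 and 3.13 CPM with CKD, against 5.42, 6.13, 10.4 and 12.1 CPM in controls. Of the 8 CKD libraries 5 lay below every control, while male_CKD 1 and female_CKD 4 stood well inside the control range. Its mean was 4.81 ± 2.22 CPM in CKD and 7.86 ± 2.52 CPM in control ventricles (SD, n = 8 each), a log2 fold change of -0.70 (SE 0.26, 95% interval -1.23 to -0.16). It was the lowest fold change of the 10, and without male_CKD 4 it was -0.62.

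Psmb8 and Psmb9, the inducible subunits of the immunoproteasome, were lower with less spread among the CKD mice. Psmb8 had 12.1, 12.5, 10.7 and 14.2 CPM in female CKD mice, against 13.5, 14.2, 11.9 and 18.8 CPM in female controls. In males it had 12.1, 10.3, 9.92 and 10.0 CPM with CKD, against 13.6, 11.4, 22 and 17.3 CPM in controls. The CKD libraries kept to a narrow band, and the higher mean in controls came with 3 libraries above 17 CPM, all with a title code number other than 6. The log2 fold change was -0.42 for Psmb8 (SE 0.14). For Psmb9 it was -0.49 (SE 0.18), with 7.28 ± 1.59 CPM in CKD and 10.3 ± 2.83 CPM in control ventricles (SD, n = 8 each), and 5 CKD libraries below every control. Library male_CKD 4 had the lowest Psmb9 value of all, 4.07 CPM, and without it the log2 fold change of Psmb9 was -0.39.

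The subunits that Psmb8 and Psmb9 replace did not share this. Psmb5, the constitutive counterpart of Psmb8, stood at a log2 fold change of 0.10 (adjusted p = 0.735, SE 0.14), Psmb6, that of Psmb9, one of 0.20 (SE 0.15, adjusted p = 0.536), and Psmb7, that of Psmb10, one of 0.11 (SE 0.09, adjusted p = 0.581), none of them past edgeR's threshold. Per exon length, the ratio of Psmb8 to Psmb5 was 0.0260 ± 0.00616 in CKD and 0.0353 ± 0.00540 in control ventricles (SD, n = 8 each). The ratio of Psmb9 to Psmb6 was 0.0261 ± 0.00899 in CKD and 0.0388 ± 0.00820 in control ventricles. Library male_CKD 4 lowered both CKD means. It had 0.0128 for Psmb8 to Psmb5, against 0.0251 or more in every other library. For Psmb9 to Psmb6 it had 0.00778, against 0.0216 or more in every other library. Per kilobase of annotated exon, Psmb8 and Psmb9 were thus at a few percent of their counterparts in both arms. The exon lengths used, 3381 bases for Psmb8 and 3660 bases for Psmb9, lower these ratios where the expressed transcripts are shorter. In CPM, Psmb8 averaged 11.5 in CKD and 15.3 in control ventricles, and Psmb5 124 and 115. Psmb9 averaged 7.28 CPM in CKD and 10.3 CPM in control ventricles, and Psmb6 156 and 135. Psmb10, the remaining immunoproteasome subunit, is named after its value was seen. Its ratio to Psmb7 per exon length was 0.652 ± 0.0866 in CKD and 0.694 ± 0.107 in control ventricles, above the other pairs. In CPM, Psmb10 averaged 43.5 in CKD and 42.8 in control ventricles, and Psmb7 134 and 124. The log2 fold change of Psmb10 was 0.02 (SE 0.13).

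The subunits of the peptide transporter had unequal values. Tap1 had a mean of 7.50 ± 2.62 CPM in CKD and 11.3 ± 4.82 CPM in control ventricles (SD, n = 8 each), a log2 fold change of -0.58 (SE 0.24), while Tap2, which stands next to it in the genome, had 18.2 ± 5.65 CPM in CKD and 20.3 ± 5.86 CPM in control ventricles, a log2 fold change of -0.18 (SE 0.18, 95% interval -0.55 to 0.19). Per exon length, Tap1 to Tap2 stood at 0.288 ± 0.0512 in CKD and 0.371 ± 0.0637 in control ventricles. Tapbp had 34.7 ± 13.1 CPM in CKD and 43.6 ± 20.5 CPM in control ventricles, with the widest interval of the 10 (log2 fold change -0.33, 95% interval -0.92 to 0.26). Its libraries ran from 9.20 CPM in female_control 2 to 73.4 CPM in male_control 4, so the spread within controls was larger than the distance between the arms.

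The heavy chains and their light chain had lower means in CKD than in control ventricles. H2-K1 had 152, 134, 114 and 180 CPM in female CKD mice, against 159, 157, 137 and 190 CPM in female controls. In males it had 157, 123, 95.9 and 110 CPM with CKD, against 138, 124, 230 and 187 CPM in controls. Here 4 of the 8 CKD libraries lay below every control and 7 below the control median, and the log2 fold change was -0.31 (SE 0.14, 95% interval -0.62 to -0.01). H2-D1 had 113 ± 37.7 CPM in CKD and 163 ± 48.7 CPM in control ventricles (SD, n = 8 each), a log2 fold change of -0.52 (SE 0.20), and -0.43 without male_CKD 4. B2m, the light chain of both and of Mr1, had 133 ± 43.0 CPM in CKD and 166 ± 30.8 CPM in control ventricles, a log2 fold change of -0.35 (SE 0.14). Per exon length the ratio of B2m to H2-K1 was 3.43 ± 0.816 in CKD and 3.49 ± 0.711 in control ventricles, a difference smaller than the spread between mice. Reads of the heavy chains may be shared: 9.63% of the 50-base words of H2-K1 transcripts and 12.77% of those of H2-D1 also occur in other genes, mostly of the H2 family.

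Mr1 was the gene with the clearest separation. It had 39.3, 46.4, 39.4 and 35.4 CPM in female CKD mice, against 22.4, 26.9, 27.2 and 23.4 CPM in female controls. In males it had 33.3, 33.2, 32.0 and 38.8 CPM with CKD, against 29.3, 29.4, 21.3 and 22.5 CPM in controls. The arms did not overlap: the lowest CKD library, at 32.0 CPM, lay above the highest control, at 29.4 CPM. Such a gap between 8 and 8 libraries in this direction occurred in 26 genes (0.159% of those tested), and one within females and within males in 49 genes (0.299%). The log2 fold change was 0.55 (SE 0.10, 95% interval 0.34 to 0.76), a 1.46-fold higher level, and 0.53 without male_CKD 4. Mr1 counts ran from 238 to 531 per library, and no 50-base word of its transcripts occurs in another annotated gene.

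**Figure D2:**
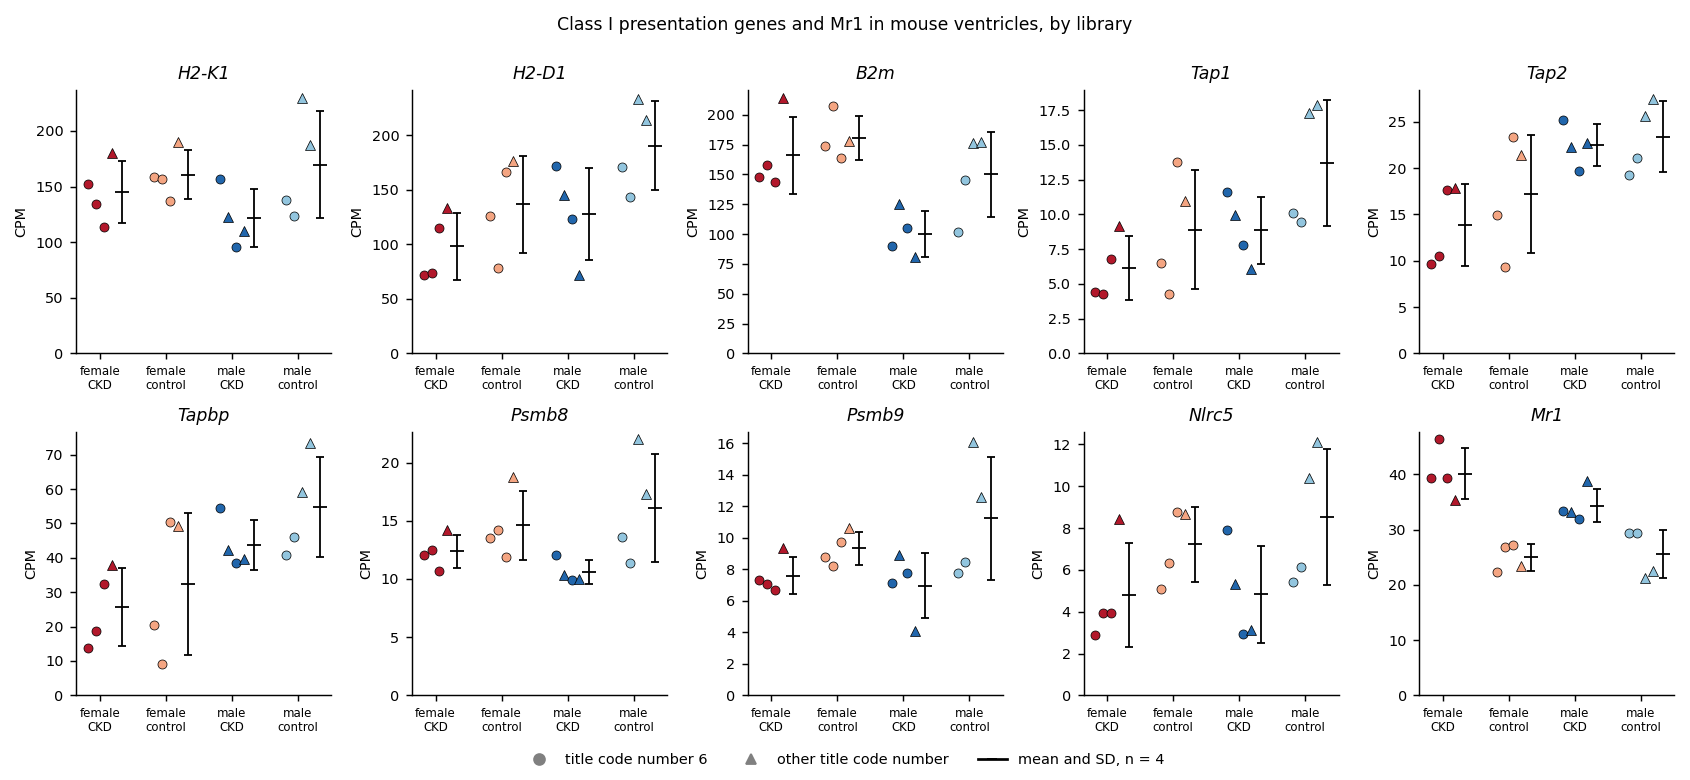
CPM of the 10 genes in every library, by group, with CKD left of control within each sex; circles are libraries with title code number 6, triangles those with another number, and black bars the mean and SD of 4 mice. Mr1 is the panel in which all CKD libraries (32.0 to 46.4 CPM) stand above all controls (21.3 to 29.4 CPM), and in 8 of the other 9 panels the highest point is a control triangle.

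The genes that neighbour Mr1 were looked at for a shared difference. On the side of higher coordinates the next tested genes were Stx6, BC034090 and Xpr1, with CKD-against-control log2 fold changes of -0.13 (SE 0.09), -0.29 (SE 0.27) and 0.21 (SE 0.16). On the other side they were Ier5, Glul and Teddm2, with 0.37 (SE 0.30), 0.56 (SE 0.13) and 0.17 (SE 0.17). By edgeR none of the 6 passed, and the lowest adjusted p was 0.0946 for Glul, the glutamine synthetase gene, which lies 1217554 bases away. The nearest, Stx6 at 11901 bases, had a fold change of the other sign.

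Other class I genes had lower values mainly among the H2-Q genes. Of 22 such genes listed for this report, 19 were in the table and 15 were tested. None passed edgeR's adjusted threshold in either direction, 1 was higher and 6 were lower at an unadjusted p under 0.05, 11 of 15 had a negative log2 fold change and the median was -0.24. H2-Q7, a non-classical class I heavy chain, averaged 19.7 ± 9.06 CPM in CKD and 38.2 ± 11.9 CPM in control ventricles (SD, n = 8 each), a log2 fold change of -0.95 (adjusted p = 0.108, SE 0.25). H2-Q6 had -0.74 (SE 0.23, adjusted p = 0.140) and H2-Q4 -0.59 (SE 0.20, adjusted p = 0.173). H2-Q7 is among the genes that share words with H2-K1 and H2-D1, and reads may be split between them. The class I-like molecules outside the H2 cluster, named here after their values were seen, differed in sign, with 0.29 (SE 0.12) for Hfe, an iron regulator, 0.26 (SE 0.14) for Cd1d1, which presents lipids, and -0.24 (SE 0.11) for Fcgrt, the neonatal Fc receptor.

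The wider pathway showed no common direction. Among 22 listed genes of peptide trimming, loading, interferon signalling and class I transcription, all tested, edgeR called none, 0 were higher and 2 were lower at an unadjusted p under 0.05, 12 were negative and the median log2 fold change was -0.01. Among those with the lowest p were Irf1, an interferon-induced activator (-0.31, SE 0.14, adjusted p = 0.306) and Rfxank, a subunit of the RFX complex that Nlrc5 joins (-0.18, SE 0.09, adjusted p = 0.359).

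Within each sex the signs were alike, and the sizes were not shown to differ. The median log2 fold change of the 10 genes was -0.30 in females and -0.58 in males, and in each sex 9 were negative and Mr1 was positive. Mr1 had 0.68 (SE 0.14) in females and 0.42 (SE 0.14) in males. B2m had -0.12 (SE 0.18) in females and -0.58 (SE 0.18) in males, and Psmb9 -0.30 (SE 0.25) in females and -0.68 (SE 0.25) in males. The difference of the CKD difference between the sexes, female minus male, was tested as an interaction in edgeR, and 0 of 16400 genes passed (0% of those tested) and 276 had an unadjusted p under 0.05 (1.68%). No member was among the 276. The interaction was 0.46 for B2m (SE 0.26, 95% interval -0.09 to 1, adjusted p = 1) and 0.26 for Mr1 (SE 0.19, 95% interval -0.15 to 0.67, adjusted p = 1). These 2 values depended on the libraries and the tool. With title code number 6 only, B2m stood at 0.04 and Mr1 at 0.53 (unadjusted p = 0.0185, adjusted p = 0.962 in edgeR), and with limma-voom B2m stood at 0.20 and Mr1 at 0.46 (unadjusted p = 0.0124, adjusted p = 0.85). With 1 library left out in turn B2m ran from 0.31 to 0.59 and Mr1 from 0.16 to 0.34. DESeq2 and limma-voom also called 0 genes. The intervals include differences as large as the CKD difference itself, so equal sizes in both sexes are not shown.

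**Figure D3:**
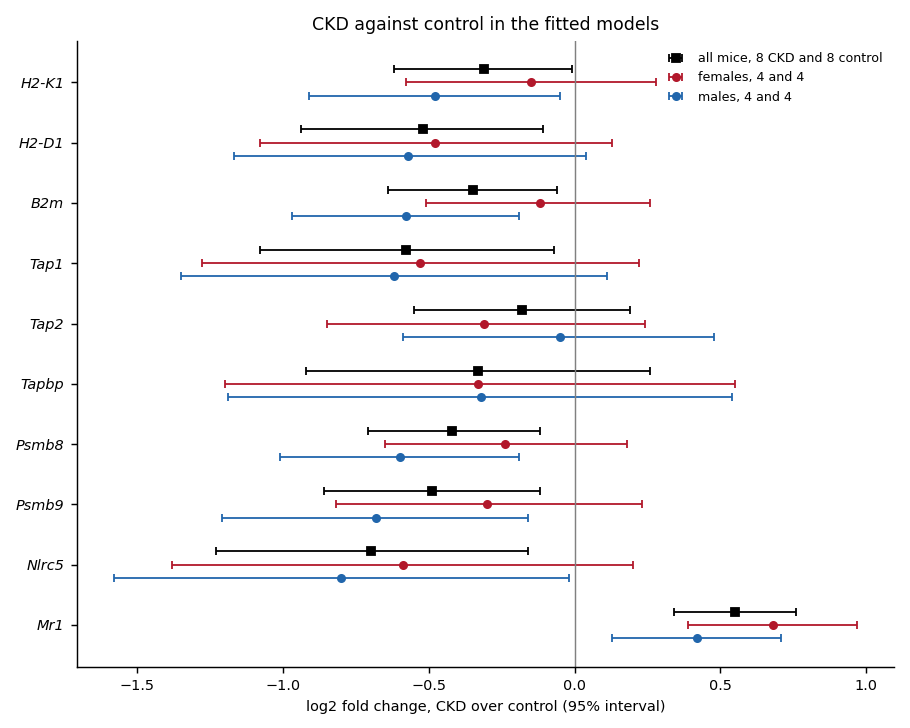
Log2 fold change of CKD over control for each gene with its 95% interval, in all mice (black squares), in females (red) and in males (blue). Mr1 lies right of zero in all 3 estimates and the other 9 genes lie left of it, with male and female intervals that overlap for every gene.

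Female and male ventricles were also compared within each arm. In CKD mice edgeR called 7 of 16400 genes (0.0427%) and none of the 10, and 2458 genes (15%) had an unadjusted p under 0.05, B2m and Tap2 among them. B2m had 148, 158, 144 and 214 CPM in female CKD mice, against 90.4, 125, 105 and 80.8 CPM in male CKD mice. Every female lay above every male, as in 668 tested genes (4.07%), and the log2 fold change, female over male, was 0.73 (SE 0.18, 95% interval 0.34 to 1.12), with an adjusted p of 0.250. Tap2 had 9.60, 10.5, 17.6 and 17.8 CPM in female CKD mice, against 25.2, 22.3, 19.7 and 22.7 CPM in male CKD mice. Every female lay below every male here (log2 fold change -0.70, SE 0.26, adjusted p = 0.267), and likewise for Tapbp (-0.77, SE 0.41, adjusted p = 0.376), as in 1142 tested genes (6.96%). These counts of members without overlap, 1 and 2 of 10, are to be read against those shares. DESeq2, which called 59 of all genes (0.360%), put B2m past the threshold (adjusted p = 0.0494). Limma-voom with sample quality weights called 1554 genes (9.48%), with B2m (adjusted p = 0.0391) and Tap2 (adjusted p = 0.0401) among them.

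In control mice edgeR called 6 genes between the sexes (0.0366%), none of the 10, and 1122 genes (6.84%) had an unadjusted p under 0.05, again none of the 10. Tapbp had the lowest log2 fold change, female over male, at -0.76 (SE 0.41), followed by Tap1 at -0.61 (SE 0.35) and H2-D1 at -0.48 (SE 0.29), each with an adjusted p of 0.639. DESeq2 and limma-voom called none of the 10 there either. B2m stood at 0.27 (SE 0.18) and Mr1 at -0.04 (SE 0.14) in controls.

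The GC content of transcripts moved with these sex differences. For each library the Spearman correlation between the level of a gene relative to its mean and its GC content over all tested genes gives its GC trend, which was -0.492 to 0.0123 in female CKD, -0.471 to 0.145 in female control, 0.0360 to 0.406 in male CKD and 0.00959 to 0.548 in male control libraries. Tapbp (57.1% GC), Tap2 (56.9%) and H2-D1 (55.9%) are rich in GC, and B2m (41.2%) and Mr1 (43.2%) are poor in it. The 3 lowest Tapbp values, 13.8 CPM in female_CKD 1, 18.7 CPM in female_CKD 2 and 9.20 CPM in female_control 2, came from 3 of the 4 libraries with the lowest GC trend. With GC and length trends removed from each library, the log2 fold change of female over male CKD mice was 0.49 for B2m, -0.28 for Tap2 and -0.37 for Tapbp, smaller than before for all 3. The CKD-against-control value then was -0.53 for B2m, 0.00 for Tap2, -0.12 for Tapbp, -0.22 for H2-K1, -0.61 for Nlrc5 and 0.57 for Mr1.

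**Figure D4:**
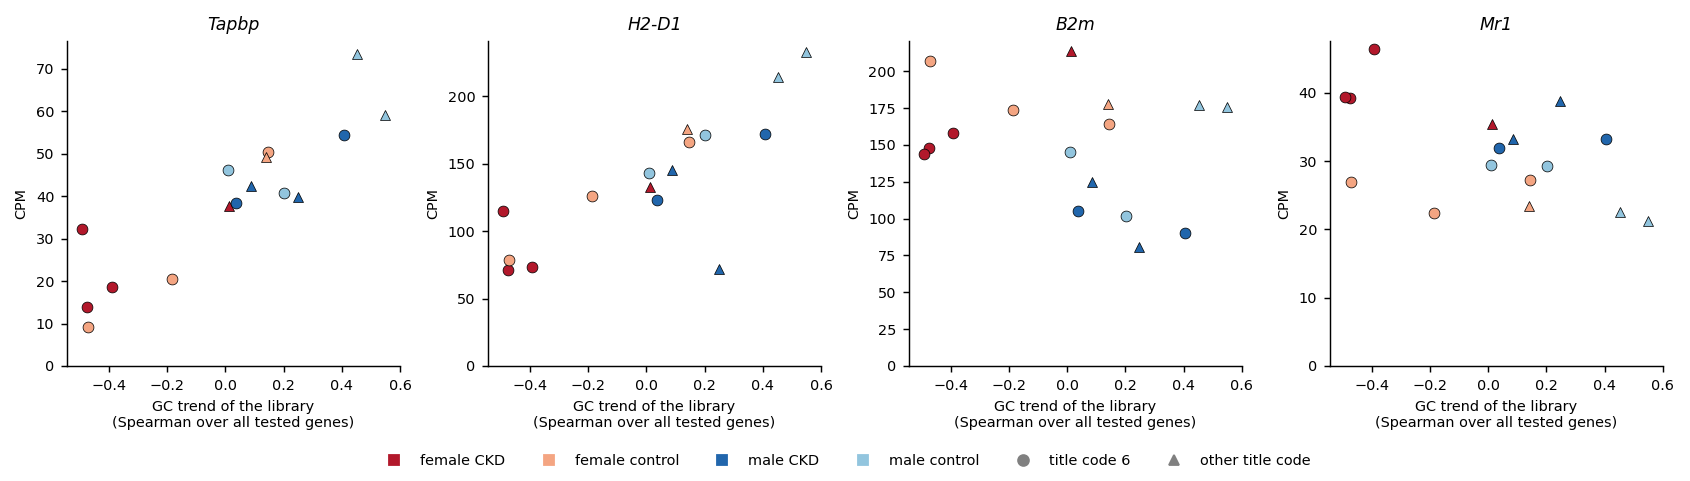
CPM of Tapbp, H2-D1, B2m and Mr1 in each of 16 libraries against the GC trend of the library; colours give the group and shapes the title code number. Tapbp is at 9.20 to 32.3 CPM in the 4 female libraries at the left, where the GC trend is between -0.492 and -0.391, and at 20.5 CPM or more in the other 12 libraries, whereas B2m and Mr1 are not low at the left.

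Between mice of the same group, Nlrc5 varied together with most of the other class I genes. Log2 CPM was centred on the mean of each group, which removes the mean differences of CKD and sex. Each of 17 relations was tested with 100000 permutations within groups (n = 16 libraries, two-sided, adjusted over the 17). Groups mix title code numbers, which were neither centred on nor kept apart in the permutations. A difference that goes with that number therefore stays in r and in its p-value. Nlrc5 and Tap1 had Pearson's r = 0.80 and Spearman's rho = 0.70 (permutation p = 0.00076, adjusted p = 0.0129 for r). With H2-D1 r was 0.73 (rho 0.74, adjusted permutation p = 0.0149) and with H2-K1 0.72 (rho 0.64, adjusted permutation p = 0.0277). Tap2 and Tapbp each had r = 0.63 and Psmb8 0.59, and these 3 passed as well; Psmb9 (0.64) and B2m (0.55) did not. The median r of Nlrc5 over all tested genes was -0.02. Of all genes, 0.213% reached the value of Tap1, 0.866% that of H2-K1 and 9.50% that of B2m. The GC trend of the libraries also differed within groups, and it was not removed from these values or those of Mr1. Nlrc5 has 52.6% GC, and the partners that passed have 52.5% to 57.1%. Of the 2 that did not, B2m has 41.2% and Psmb9 54.1%. The part of the GC trend in these relations was not tested.

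Mr1 had negative values of r with all the other members within groups, and 2 of its 8 relations with the class I genes passed. Its r with Psmb9 was -0.78 (rho -0.82, permutation p = 0.00448, adjusted p = 0.0152) and with H2-D1 -0.63 (rho -0.54, adjusted permutation p = 0.0277). With H2-K1 and Psmb8 r was -0.67 each, with B2m -0.61 and with Tap1 -0.57, all with an adjusted permutation p of 0.0551. With Tap2 r was -0.39 (adjusted permutation p = 0.16) and with Tapbp -0.35 (adjusted permutation p = 0.185). Between Nlrc5 and Mr1 r was -0.48 (adjusted permutation p = 0.108). In all, 8 of 17 relations passed. With the 2 libraries farthest from the median on the x axis left out, 4 remained past the threshold: Nlrc5 with Tap1 (r = 0.77), Tap2 (0.59) and Tapbp (0.60), and Mr1 with Psmb9 (-0.80).

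Among the 10 libraries with title code number 6 the same relations were tested with little power. Their groups allow 144 arrangements, so that the smallest exact permutation p is 0.00694, and a single relation cannot pass after adjustment over 17. There 0 of 17 passed and none had an unadjusted permutation p under 0.05, which does not show that the relations are absent. The r of Nlrc5 with Tap1 was 0.58, against 0.80 over all libraries, and 0.51 with H2-D1 (0.73), Tap2 (0.63) and Tapbp (0.63) each. It was 0.42 with H2-K1, 0.18 with Psmb8, -0.13 with Psmb9 and -0.27 with B2m. The r of Mr1 was 0.11 with Psmb9, -0.17 with H2-D1 and 0.50 with Nlrc5, against -0.78, -0.63 and -0.48 over all libraries. With H2-K1 it was 0.02 and with Psmb8 0.16, against -0.67 each. The 6 other libraries hold 1 or 2 mice of each group, too few for a value of their own. The values of r thus moved with the choice of libraries by title code number, whose part in them was not tested.

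**Figure D5:**
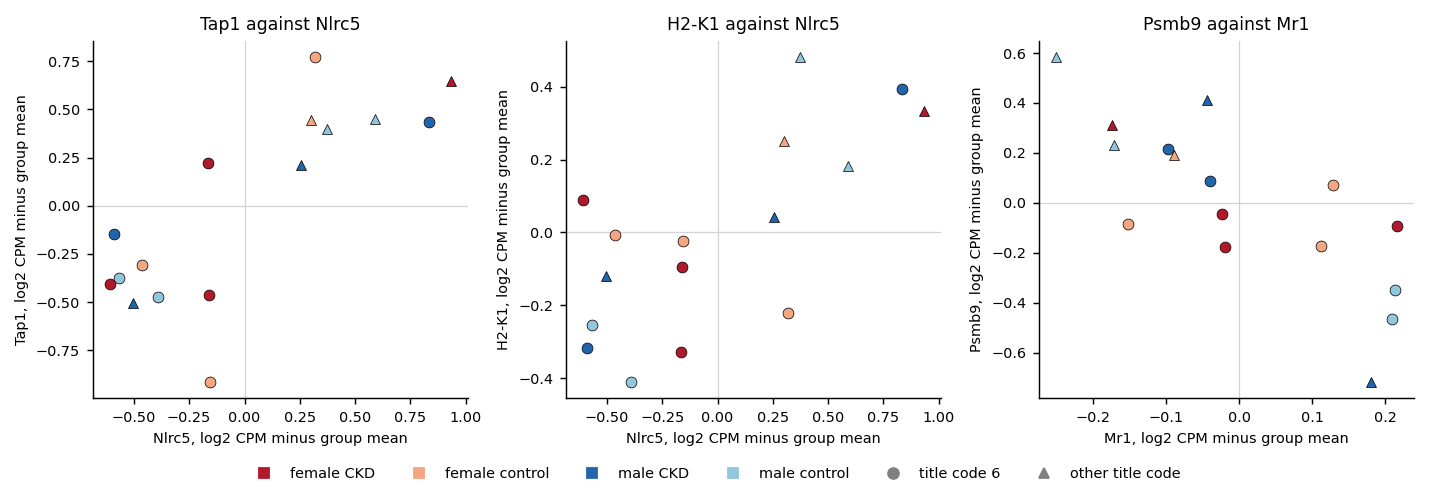
Each point is 1 of 16 libraries, placed by log2 CPM minus the mean of its group, for Tap1 and H2-K1 against Nlrc5 and for Psmb9 against Mr1; colours give the group, circles title code number 6 and triangles other numbers. Points rise together in the first 2 panels (r = 0.80 and 0.72) and run in opposite directions in the third (r = -0.78), with most triangles at one end.

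The genes whose within-group pattern was most like that of Mr1 over the 16 libraries were Pnrc2 (r = 0.908), Stau2 (0.907), Gm18284 (0.898), Coq3 (0.886) and Hmgn5 (0.884), given as a description. Their CKD-against-control log2 fold changes were 0.16, 0.00, 0.05, 0.10 and 0.30, all below the 0.55 of Mr1. For H2-K1 they were H2-Q6 (r = 0.918), Psmb8 (0.908), Bub1b (0.891), Gm6580 (0.833) and Cyb5r3 (0.83), so an H2 gene and another of the 10 genes ranked first. The libraries share their depth scaling and GC trend, and the 4 protein-coding genes nearest to Mr1 had a GC content of 40.4% to 44.1%, close to its own.

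The title code number also went with the size of the CKD difference. In the libraries with number 6, H2-K1 averaged 131 ± 26.0 CPM in 5 CKD and 143 ± 14.9 CPM in 5 control ventricles (SD), and in the others 138 ± 37.4 CPM in 3 CKD and 202 ± 23.6 CPM in 3 control ventricles. The CKD means were close to each other, and the control means were not. Psmb8 averaged 11.5 ± 1.09 CPM with CKD and 12.9 ± 1.21 CPM in controls with number 6, and 11.5 ± 2.36 CPM with CKD and 19.4 ± 2.39 CPM in controls with other numbers. In log2 terms H2-K1 had -0.13 (SE 0.14) with number 6 and -0.59 (SE 0.23) with the others, Psmb8 -0.18 (SE 0.11) and -0.77 (SE 0.23), H2-D1 -0.35 (SE 0.21) and -0.83 (SE 0.29), and Nlrc5 -0.57 (SE 0.28) and -0.95 (SE 0.34). Mr1 had 0.48 (SE 0.12) with number 6, where 5 CKD libraries at 32.0 to 46.4 CPM stood above 5 controls at 22.4 to 29.4 CPM, and 0.67 (SE 0.20) with the others. All 10 genes kept their sign in both sets. The difference between the sets was not tested.

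Markers of several cell types had lower median sums in CKD than in control ventricles. Library male_CKD 4 had the lowest sum of the macrophage, dendritic, endothelial, fibroblast and mural lists. Without it, the fibroblast median was 2022 CPM in CKD and 1998 CPM in control ventricles. The macrophage median was then 371.6 CPM in CKD and 363.4 CPM in control ventricles, so neither was lower. Lymphocyte markers (12 genes, 5 tested) summed to 5.427 to 9.323 CPM in CKD and 8.261 to 13.55 CPM in control ventricles. All 5 tested had negative log2 fold changes, with a median of -0.58, and of -0.56 without male_CKD 4. Dendritic cell markers (6 genes, 3 tested) summed to 15.61 to 29.91 CPM in CKD, from 20.36 without that mouse. In control ventricles they summed to 24.99 to 36.20 CPM. Their median log2 fold change was -0.32 (-0.27 without that mouse). Most of the sum was Zbtb46, at 17.6 CPM in CKD and 22 CPM in control ventricles, so it follows mainly 1 gene. The 3 tested had -0.32 (Zbtb46, SE 0.13), 0 (Clec9a, SE 0.18) and -0.76 (Itgax, SE 0.25). Most of the lymphocyte and dendritic markers were scarce in both arms. Cd3e, Nkg7, Ncr1, Gzma, Flt3 and Cd209a were at 0 in 1 library each and Cd8a in 2.

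Macrophage markers summed to 199.8 to 406.8 CPM in CKD (from 304.2 without male_CKD 4) and 325.9 to 456.9 CPM in control ventricles. There 13 of 14 were negative with a median of -0.14, and 11 of 14 with a median of -0.03 without that mouse. Endothelial markers summed to 414.8 to 1085 CPM in CKD (from 701 without it) and 877.7 to 1171 CPM in control ventricles, with 10 of 10 negative and a median of -0.28, and 9 of 10 and -0.25 without it. Fibroblast markers summed to 532.4 to 2303 CPM in CKD (from 1407 without it) and 1908 to 2373 CPM in control ventricles, with 10 of 10 negative and a median of -0.41, and 8 of 10 and -0.29 without it. Mural cell markers summed to 743.6 to 1750 CPM in CKD (from 1369 without it) and 1293 to 1753 CPM in control ventricles, with 9 of 10 negative and a median of -0.22, and 6 of 10 and -0.20 without it. Cardiomyocyte markers were negative in 2 of 10 with a median of 0.12, and in 3 of 10 with a median of 0.05 without it.

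In males the median sums of 3 lists were not lower with CKD. They were 2044 CPM in CKD and 2010 CPM in control males for fibroblast markers, 1510 CPM in CKD and 1354 CPM in control males for mural markers, and 386.9 CPM in CKD and 383.6 CPM in control males for macrophage markers. In females the fibroblast median was 1454 CPM with CKD and 1960 CPM in controls. Over all mice, 2 genes held much of the mural sum. Rgs5 averaged 665 CPM in CKD and 726 CPM in control ventricles (log2 fold change -0.12, SE 0.25). Abcc9 averaged 451 CPM in CKD and 402 CPM in control ventricles (0.16, SE 0.13), and was the 1 positive gene of that list. EdgeR called none of the markers at the adjusted threshold, with or without male_CKD 4. At an unadjusted p under 0.05 and with all libraries, 2 or 3 markers of each list were lower, except for cardiomyocytes, with 2 higher. The part of these cell types in the lower class I values was not tested.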

How the data were processed

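Total RNA of 16 mouse ventricles was measured by RNA sequencing. The deposited table holds raw counts of reads per gene, not normalized. STAR 2.6.1d, featureCounts (Subread 1.6.3), FastQC, MultiQC, DESeq2 1.30.1 and the build mm10 are named, per the submitters' processing notes. The sources used here do not give the annotation, the strand setting or the treatment of reads with several places, so overlapping genes on opposite strands (24.92% of the exon bases of Tapbp, 18.46% of Tap2 and 14.73% of Psmb8 overlap one) cannot be told apart.

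Of 33399 gene identifiers, 33367 were matched to GENCODE M21. In R 4.3.3, edgeR 4.0.16 kept 16400 genes (filterByExpr, minimum count 10, minimum total 15), scaled libraries by TMM and ran quasi-likelihood F tests: CKD with sex as covariate, and contrasts of the 4 groups for sex and interaction. Adjusted p-values are Benjamini-Hochberg over all tested genes, two-sided, threshold 0.05. The common biological coefficient of variation was 0.225, which is the main error of genes with many counts; for Nlrc5, Tap1 and Psmb9 counting error adds to it. Correlations used log2 CPM with a prior count of 2. Scripts were checked on simulated counts. No library was a copy of another: within groups chi-square per degree of freedom was 7.80 to 56.9.

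The members, gene lists and tests were chosen with earlier results of these data known. Named besides the members are the 3 genes of lowest p of each list without a call, the 5 nearest patterns of Mr1 and H2-K1, and 3 neighbours of Mr1 on each side; 1 gene that this rule names is not reported here. Alternatives were DESeq2 1.42.0, limma-voom (limma 3.58.1), other scalings and filters, the title code number, no sex term and libraries left out. Removal of GC and length trends (lowess, span 0.3), the 6 libraries with other title code numbers correlations within number 6 and marker lists without male_CKD 4 were added after seeing the data.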

Additional observations from a re-analysis of the deposited data

Results flagged for a closer look

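Psmb8 in library male_CKD 1 stood at 12.1 CPM, apart from the other 3 male CKD libraries at 9.92 to 10.3 CPM. Its gap was 0.835 of the range of the group, more than Dixon's 95% limit for 4 samples. It was 1 of 40 combinations of gene and group that were looked at in this way, and chance gives such a gap in about 1 of 20.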

How the results depend on the processing

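The CKD-against-control comparison called 14 genes. It called 398 with DESeq2, 199 with limma-voom, 53 with no filter, 234 with the title code number as a factor, 8 with number 6 only, 22 with male_CKD 4 and female_control 2 both left out, 24 with GC and length trends removed, and 6 to 43 with 1 library left out. With the 6 libraries of other numbers edgeR called 0, with 1066 genes at an unadjusted p under 0.05. Of the members, Mr1 was called in the main comparison and in 8 of 13 other settings; 0 members were called with upper-quartile scaling, without mitochondrially encoded genes, with number 6 only, with the other numbers only, and without the pair male_CKD 4 and female_control 2. With 1 library left out, 0 to 1 members were called: Mr1 kept its call without male_CKD 3, male_control 1, male_control 2 or female_CKD 4 and lost it without any of the other 12, at log2 fold changes of 0.50 to 0.58. No other member was called in any of these, and the median log2 fold change of the 10 ran from -0.22 to -0.68. All 9 stayed negative, apart from Tap2 at 0.00 with GC and length trends removed. Between female and male CKD mice DESeq2 called 59 genes with 1 member, limma-voom 1554 with 2 members and edgeR 7 with 0. Of the 17 correlations, 8 passed, 4 with the 2 farthest libraries left out, 8 with RLE scaling, 12 uncentred and 0 with number 6 only. There the sign turned for Nlrc5 with B2m (-0.27), Psmb9 (-0.13) and Mr1 (0.50), and for Mr1 with H2-K1 (0.02), B2m (0.18), Tap1 (0.04), Tapbp (0.04), Psmb8 (0.16) and Psmb9 (0.11). The causes were not tested. No paired analysis was possible because the labels give no replicate numbers. Depth limits Nlrc5, Tap1 and Psmb9 most, at 33 to 208 counts.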
